A study of Cardamine sp. SIM-2007 with 7 samples.

Results

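The 200 nuclear genes with the brightest RNA signal in young inflorescences of Cardamine kokaiensis, a wild plant of the Arabidopsis family, are described here. They were selected on their mean log2 intensity over the 6 RNA arrays, after quantile normalization, among 13271 nuclear genes that the platform annotation paired with a probe set of 1 gene. They thus make up 1.51% of those genes. Their level is the value that chose them and is given as a description. The differences between flower types were not used to choose them.

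Each RNA sample was a pool of 160 primordia of the first inflorescence, hybridized to an Affymetrix ATH1 array, which carries Arabidopsis probes. The plants formed flowers of 3 types, with 2 biological replicates each. Cleistogamous (CL) flowers, which stay closed and pollinate themselves, followed 28 days of chilling after germination. Intermediate (INT) flowers followed 14 days of chilling after germination, and chasmogamous (CH) flowers, which open, followed 14 days of chilling before germination. Flower type therefore cannot be told apart from the timing and length of chilling. A further array held genomic DNA from leaves of plants that were not chilled. Because whole primordia were pooled, fewer cells of a type and less RNA per cell cannot be told apart in any value below. With 2 arrays per type, the number of arrays limits the precision (median intensities per RNA array ran from 260.7 to 301.7). The p-values set a difference between types against the spread between these pools.

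Growing plant tissue spends much of its messenger RNA on a small number of basic tasks. Ribosomal proteins and translation factors, glycolysis, protein folding and turnover, the cytoskeleton and the cell wall are the usual sources of the most abundant nuclear transcripts, and green tissue adds the nuclear-encoded subunits of the photosystems. Regulators such as transcription factors are usually made at much lower levels. An intensity depends on how well a Cardamine transcript binds an Arabidopsis probe as well as on its amount, so the order of the genes is an order of signal.

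The 200 genes ranged from 11.94 to 15.63 on the log2 intensity scale, with a median of 12.50, against a median of 7.97 for the other 13071 nuclear genes. They carried between 9.81% and 10.5% of the summed intensity of an array, and the brightest 20 carried between 2.7% and 3.12%. In all, 548 probe sets reached the limit of 11.94. Of these, 289 had no gene in the annotation, 35 had several, 23 belonged to the plastid genome and 1 to the mitochondrial genome, so the 200 genes are the named share of the bright signal. The last genes inside the limit were MAB1, AT1G57540 and SCN1, and the first outside it were AT3G30390, AT3G12050 and AT2G42310, all 6 at 11.94 after rounding. The limit thus cuts through a continuous range of levels. Each of the 200 genes had 1 probe set in the annotation.

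Most of these genes go by a locus identifier alone. The annotation gave 47 of them, 23.5%, a symbol, against 1472 of the 13271 nuclear genes, 11.1%. The other 153 are named below by their identifier and without a role. What follows about function covers only the genes with a symbol.

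The brightest gene, AT4G16720, measured 15.90 and 15.56 on the CL arrays, 15.52 and 15.38 on the INT arrays and 15.78 and 15.61 on the CH arrays. It was the brightest of the 200 on every array. AT1G67430 followed with 14.83 and 15.13 in CL, 15.07 and 15.07 in INT and 15.07 and 14.95 in CH. PRXR1 encodes a class III peroxidase, an enzyme of the cell wall and secretory pathway, and measured 14.58 and 14.81 in CL, 15.03 and 15.28 in INT and 14.99 and 14.99 in CH. Both CL arrays lay below all 4 others for PRXR1.

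GH9B13, a glycosyl hydrolase of the family that holds the plant cellulases, ranked sixth with 14.56 and 14.69 in CL, 14.72 and 14.35 in INT and 14.30 and 14.69 in CH. Its flower types overlapped. AILP1, named for its likeness to aluminium-induced proteins, measured 14.13 and 14.31 in CL, 14.44 and 14.90 in INT and 14.69 and 14.66 in CH, again with both CL arrays lowest. TPI, the glycolytic triosephosphate isomerase, measured 14.06 and 14.23 in CL, 14.31 and 14.48 in INT and 14.08 and 14.56 in CH. The remaining genes of the brightest 20 were AT3G16080, AT3G49910, AT1G36240, AT3G44590, AT3G08610, AT2G01250, AT1G62500, AT4G26870, AT5G27850, AT1G26880, AT4G27090, AT1G52600, AT2G34480 and AT5G02870, with means between 13.83 and 14.89. AT3G49910 and AT4G27090 were lowest on the array of INT replicate 2, at 14.17 and 13.42, and lay between 14.89 and 15.07 and between 14.01 and 14.07 on the other 5 arrays.

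**Figure D1:**
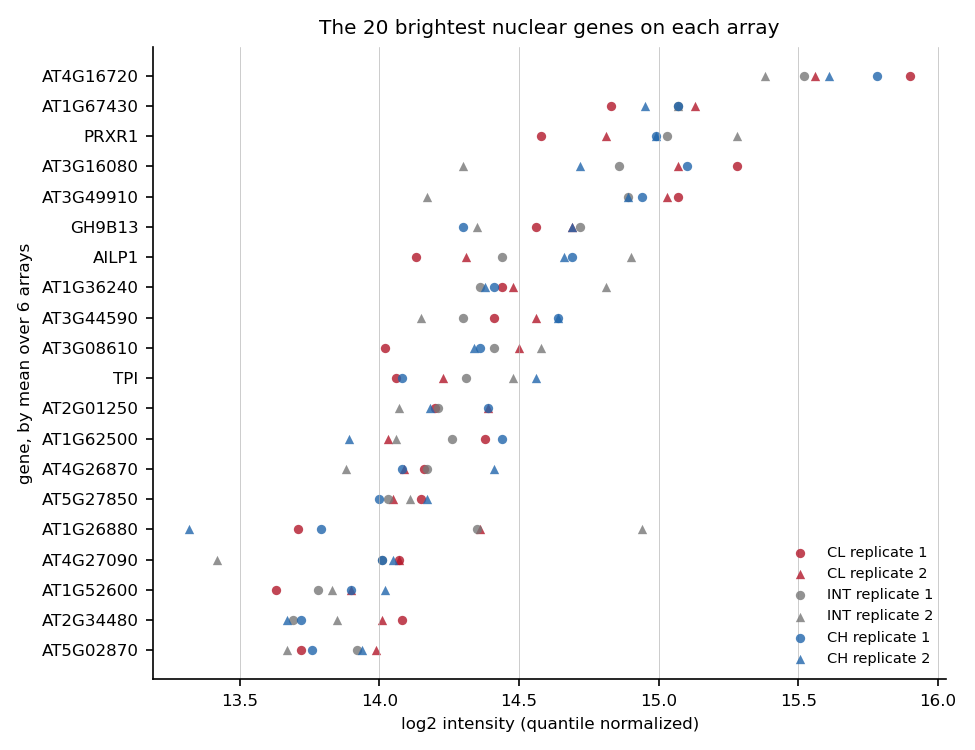
Quantile-normalized log2 intensity (horizontal axis) of the 20 nuclear genes with the highest mean over the 6 RNA arrays (rows), with 1 point per array, coloured by flower type and shaped by replicate. AT4G16720 lies at 15.38 or above on every array, and AT1G26880 has the widest spread, from 13.32 on CH replicate 2 to 14.94 on INT replicate 2.

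The 47 genes with a symbol were sorted by known role, and this sorting was made with the members in view. Carbon and energy metabolism held 9 of them, with means between 11.94 and 14.29. After TPI came GAPC2, the cytosolic glyceraldehyde 3-phosphate dehydrogenase of glycolysis, at a mean of 12.94. CYTC-1, the electron carrier cytochrome c, had a mean of 12.91. The cytosolic NADP-dependent isocitrate dehydrogenase cICDH had a mean of 12.65. ACLB-1 and ACLA-2, which encode both kinds of subunit of ATP-citrate lyase, the source of cytosolic acetyl-CoA, stood at 12.57 and 12.47. ISU1, a scaffold on which mitochondria build iron-sulphur clusters, was at 12.30, the mannose pathway enzyme PMM (phosphomannomutase) at 12.16, and MAB1, a subunit of the mitochondrial pyruvate dehydrogenase, at 11.94.

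Protein folding and turnover held 7 genes, between 12.04 and 12.89. The ubiquitin-conjugating enzyme UBC28 was the brightest at 12.89, followed by MPPBETA, a subunit of the mitochondrial processing peptidase, at 12.76 and the endoplasmic reticulum chaperone CRT1b, a calreticulin, at 12.70. ATSTE24, a protease of prenylated proteins, was at 12.39, the heat shock protein Hsp70-2 at 12.10, the aspartic protease APA1 at 12.05 and the proteasome lid subunit RPN12a at 12.04. Their ranges over the 6 arrays ran from 0.25 for ATSTE24 to 1.56 for Hsp70-2.

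RNA metabolism and translation held 6 genes, between 12.01 and 13.17. NRPB12, a small subunit of RNA polymerase, led with a mean of 13.17, and LSM1A, part of the complex that promotes mRNA decapping, followed at 12.54. The RNA-binding protein ATRBP45C was at 12.35 and ILR3, a bHLH regulator of the iron response, at 12.23. Y14, a core protein of the exon junction complex, was at 12.06, and the translation initiation helicase EIF4A-2 at 12.01.

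Cell wall and secretion held 6 genes, between 12.00 and 14.95. Besides PRXR1 and GH9B13 these were EXPA15, an expansin that loosens walls, at 13.67, and PYK10, a beta-glucosidase of endoplasmic reticulum bodies best known from seedlings and roots, at 13.55. The SNARE protein SEC22 was at 12.20 and FER, the receptor kinase FERONIA that senses the state of the wall, at 12.00. Small-molecule metabolism also held 6, between 12.01 and 12.68. They were the aldehyde dehydrogenases ALDH7B4 and ALDH10A8, THIC of thiamine synthesis, FAC1 (AMP deaminase), SAMDC of polyamine synthesis and OTC of arginine synthesis.

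Photosynthesis and chlorophyll synthesis held 5 genes, between 12.18 and 13.77. LHCB4.2 and LHCB4.1 encode forms of CP29, an antenna protein of photosystem II, and had means of 13.77 and 12.18. PSAN is a lumenal subunit of photosystem I, at 13.02, and PSB27 assists the assembly of photosystem II, at 12.30. PORB reduces protochlorophyllide to chlorophyllide and had a mean of 12.27. The cytoskeleton and cell shape held 4 genes. The beta-tubulin TUB7 stood at 13.25, AN (ANGUSTIFOLIA), which shapes leaf cells, at 12.08, the actin-binding LIM protein WLIM1 at 12.00, and SCN1 at 11.94. The other 4 were AILP1, OEP16-3 of the OEP16 family, PHOS32, a phosphoprotein related to universal stress proteins, and SPP. The annotation gives the symbol SPP to another gene as well, and no role is given here.

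**Figure D2:**
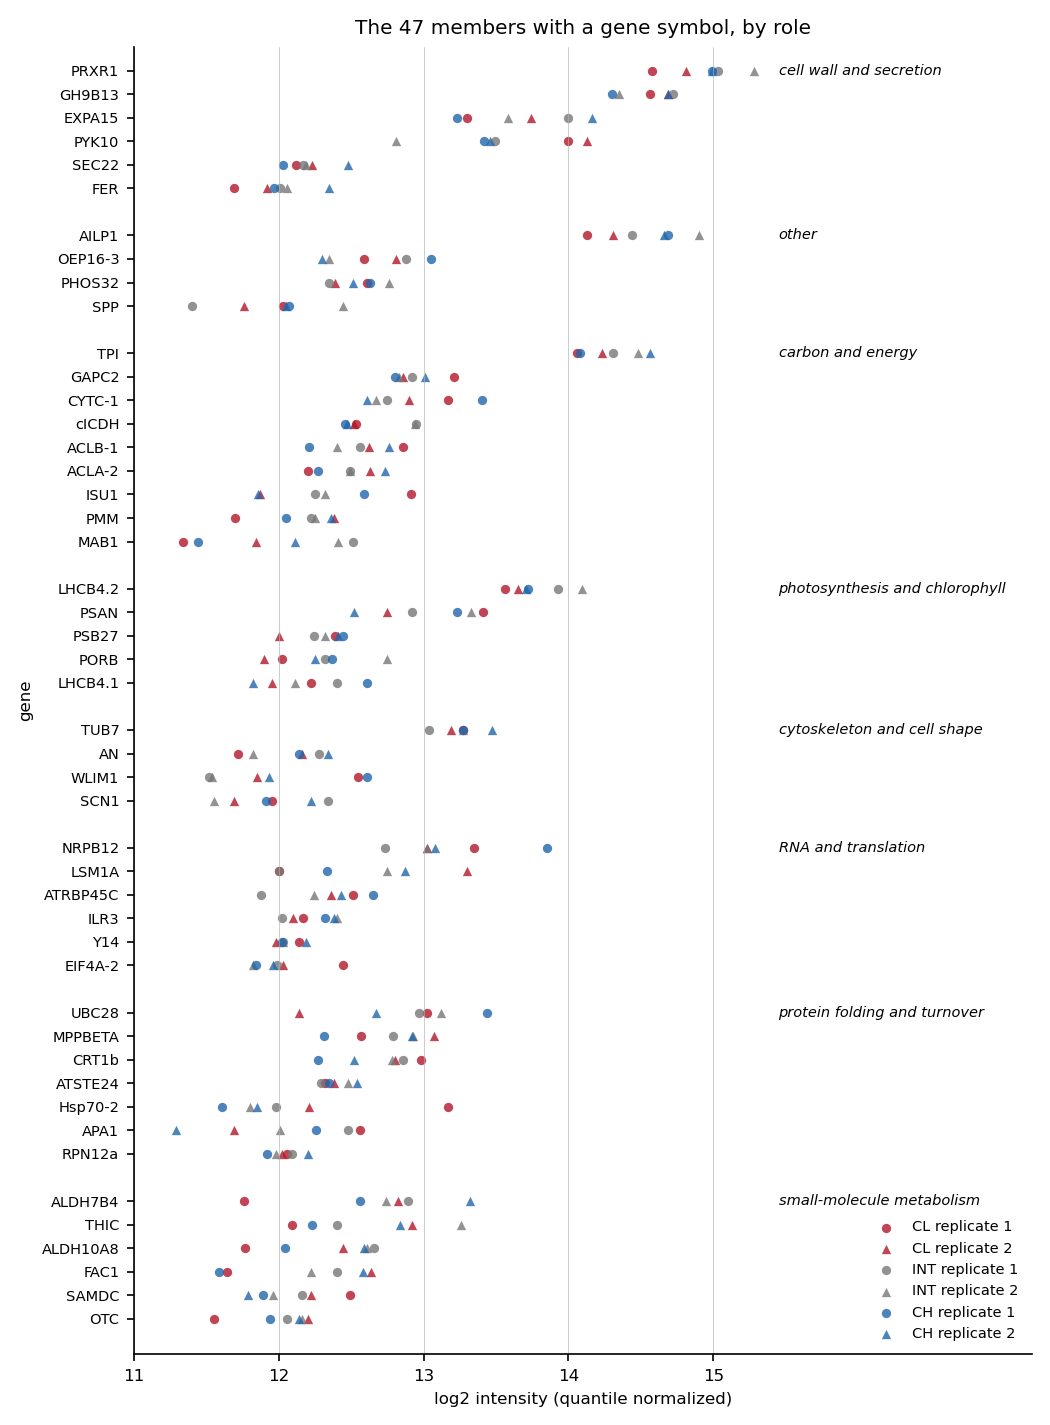
Quantile-normalized log2 intensity (horizontal axis) of the 47 members with a gene symbol (rows), grouped by known role, with 1 point per array, coloured by flower type and shaped by replicate. The flower types overlap for most genes; cICDH is an exception, with INT at 12.95 and 12.94 and the other 4 arrays between 12.46 and 12.53.

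Functional classes defined by gene symbol show how much of each class reached the 200. The classes hold only genes with a symbol, and 47 of those 1472 genes were among the 200. That share is the background for the counts below, and it is larger than the 1.51% of all nuclear genes. Of 12 nuclear-encoded photosynthesis genes that the annotation named, 4 were among the 200, and 11 lay above the median nuclear gene at 8.0. Of 8 genes of glycolysis and central carbon metabolism, 3 were among the 200. Ubiquitin and proteasome genes contributed 2 of 13, and RNA binding 1 of 6, chaperones 1 of 9, cytoskeleton 1 of 9, redox and detoxification 1 of 23, respiration 1 of 4, cell wall and arabinogalactan 1 of 33 and translation factors 1 of 1. None of 63 transcription factors named by these symbols was among the 200, and their median level was 7.07; the bHLH gene ILR3 was not in that class because its symbol names no factor family. The classes of membrane transport (18), defence (13), hormone and cold response (13), signalling (8), histones (7) and one-carbon metabolism (1) also contributed 0. Cytosolic ribosomal proteins, and chromatin and DNA replication, were also planned as classes. No measured gene fell in either by its symbol, so they could not be counted. How many members without a symbol encode ribosomal proteins was not determined. These counts cover named genes only, and no class was tested for enrichment.

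Markers of the tissue were measured on the same scale. Of 20 listed inflorescence and floral meristem genes, the annotation named 5, and none was among the 200. FD, a partner of the floral signal FT, had a mean of 8.98, the floral regulators UFO and JAG had 8.45 and 8.09, ROXY1 had 7.54 and the stem cell signal CLV3 had 6.65. Of these, 3 lay above the median nuclear gene. Of 6 listed markers of dividing cells the annotation named 2, the mitotic kinases AUR1 and AUR2, with means of 10.63 and 9.06. Of 6 listed green tissue markers it named 2. PSAN was a member, and RCA, which activates Rubisco, ranked 316 at 11.42. Of 6 listed root markers and 6 listed anther markers it named 1 each. These were EXPA7 and AMS, which stood near the median, at 8.26 and 8.36. Of the 4 seed storage and 3 vascular markers listed the annotation named 0.

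Signal on the genomic DNA array was also high for the abundant genes. Their median log2 intensity there was 9.79, against 8.57 for the other nuclear genes. It lay above the median of all nuclear genes for 174 of the 200, and within the highest 10% for 69. The next 200 genes by RNA level gave like counts, 164 and 64. Across genes, which are not independent replicates, the correlation of RNA level with DNA signal was 0.10 among the 200 and 0.30 among all nuclear genes, all of which share the same probes and arrays. How far probe binding set the membership was not tested beyond these values.

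The members with the lowest DNA signal were AT2G44120 at 5.60, AT3G57280 at 5.71, AT2G28790 at 5.89, cICDH at 6.09 and GAPC2 at 6.73. These genes gave bright RNA signal from probes that bound leaf DNA weakly. AT2G28790 had the largest excess of RNA over DNA signal of all nuclear genes, 7.36 log2 units. The members with the highest DNA signal were TPI at 11.94, AT3G06680 at 11.85, AT4G26870 at 11.62, AT2G20420 at 11.36 and AT2G47380 at 11.34. A list of 200 chosen by RNA minus DNA signal shared 53 genes with the list by RNA signal, 26.5% of each.

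**Figure D3:**
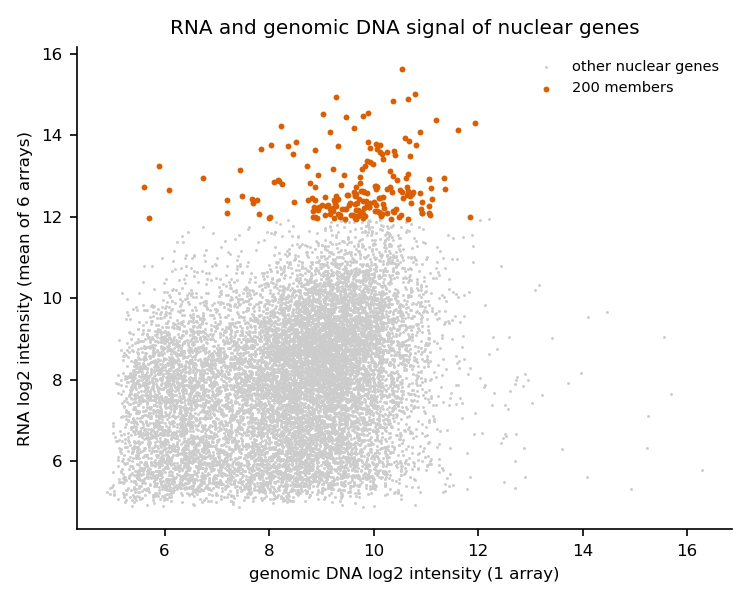
Mean log2 RNA intensity over 6 arrays (vertical axis) against log2 genomic DNA intensity on 1 array (horizontal axis) for the 200 members and the other 13071 nuclear genes, with 1 point per gene. The members lie at or above 11.94 on the RNA axis by choice and spread from 5.60 to 11.94 on the DNA axis.

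The levels of the 200 genes varied less from array to array than those of other genes. The median within-type SD was 0.22 for the members and 0.36 for the other nuclear genes, and the median range over the 6 arrays was 0.63 against 1.0. A range above 1 log2 unit occurred in 34 members, 17%, and in 50.1% of the other genes. The other genes were also much dimmer, with a median level of 7.97 against 12.50. The part of brightness in this gap was not tested. The steadiest members were AT5G27850, which lay between 14.00 and 14.17 on all 6 arrays, AT1G53210, Y14, AT2G17930 and ATSTE24, with ranges of 0.17, 0.19, 0.21, 0.23 and 0.25 in that order. The most variable were AT1G50920, AT1G44970, AT2G20870, AT2G45180 and AT1G26880, with ranges of 2.87, 2.85, 1.69, 1.65 and 1.62.

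Most of the abundant genes stayed abundant in every flower type. When the 200 brightest genes were chosen from the arrays of each type alone, 164, or 82%, were shared by all 3 lists. CH and CL shared 180 of 200, CH and INT 172 and INT and CL 173.

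The 3 flower types were then compared for each of the 200 genes with limma, a linear model with a moderated variance, fitted to all 22746 probe sets. None of the 200 genes passed an adjusted p of 0.05 in CL against CH, INT against CH, CL against INT or the F-test over all types, and percent called was 0% of all probe sets as well. The lowest adjusted p among members was 1 in CL against CH, 0.983 in INT against CH, 0.985 in CL against INT and 0.996 in the F-test. The median 95% interval of a member reached 0.58 log2 units to either side of its difference, against 0.9 for all probe sets.

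At an unadjusted p under 0.05, 4 members were higher and 3 lower in CL than in CH, or 2% and 1.5%, where 1.80% and 1.73% of all probe sets met those conditions. In INT against CH the counts were 4 higher and 6 lower, or 2% and 3%, beside 2.45% and 2.31% of all probe sets. In CL against INT they were 3 higher and 6 lower, or 1.5% and 3%, beside 2.22% and 2.18%. In the F-test 7 members, 3.5%, had an unadjusted p under 0.05, against 4.2% of all probe sets.

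The arrays of 2 types did not overlap for some members. Both CL arrays lay above both CH arrays in 24 members and below in 28, or 12% and 14%, where 13.9% and 14.8% of all probe sets did so. Both INT arrays lay above both CH arrays in 24 members and below in 39, or 12% and 19.5%, where the background was 16.4% and 17.8%. Both CL arrays lay above both INT arrays in 42 members and below in 25, or 21% and 12.5%, where the background was 17.0% and 16.0%. The gaps between members and background were not tested, and these counts were made with quantile normalization alone. A stepwise order without overlap from CH through INT to CL was found in 2 members that ascended, AT1G14670 and SAMDC, and in 0 that descended, against 0.936% and 0.888% of all probe sets.

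Differences of more than 1 log2 unit were rare. They were found in 1 member in CL against CH (AT1G50920), 2 in INT against CH (AT1G44970 and AT1G26880) and 2 in CL against INT (AT1G44970 and AT1G50920), where 4.78%, 6.28% and 5.97% of all probe sets exceeded it. Both differences of AT1G50920 rested on CL replicate 1, at 10.15. Its CL replicate 2, at 12.42, lay between the CH arrays at 11.60 and 13.02 and near the INT arrays at 12.71 and 12.79. The members' median difference was -0.044 in CL against CH, -0.018 in INT against CH and 0.001 in CL against INT, beside -0.008, -0.007 and 0.002 for all probe sets. The sign of the first 2 medians rested on the scaling. With quantile normalization 91 members were higher and 109 lower in CL than in CH, with median scaling 129 were higher and 71 lower with a median of 0.075, and as deposited 113 were higher and 87 lower with a median of 0.042. For INT against CH, 85 members were higher with quantile normalization, 108 with median scaling and 103 as deposited, with medians of 0.042 and 0.013 under the last pair of scalings.

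**Figure D4:**
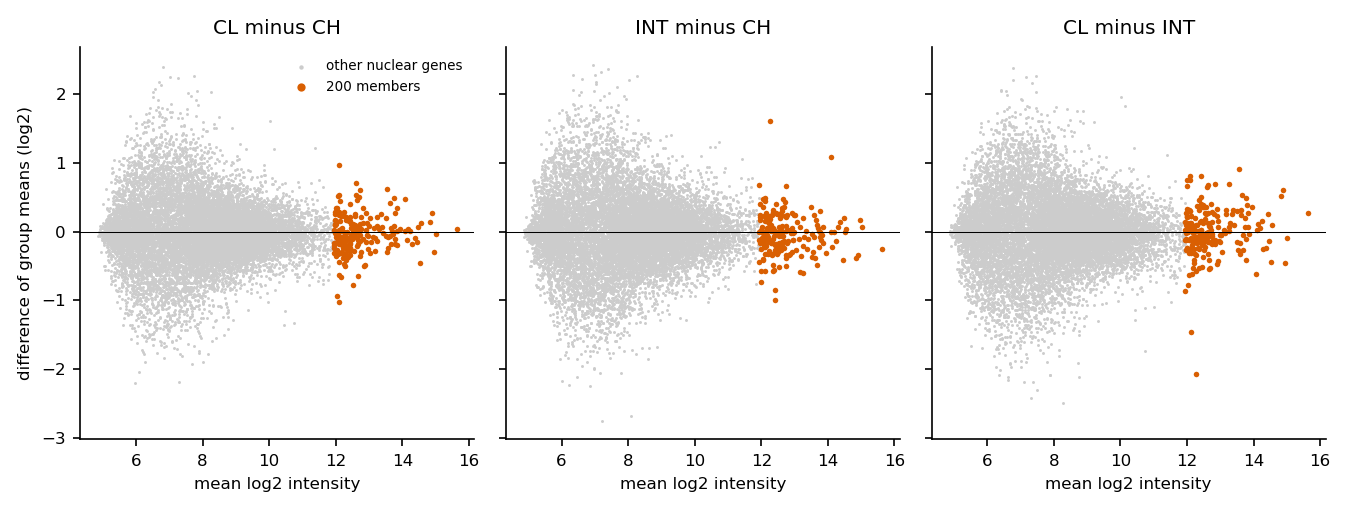
Difference of group means (vertical axis, log2) against mean log2 intensity (horizontal axis) for CL minus CH, INT minus CH and CL minus INT, with 1 point per nuclear gene and the 200 members coloured. The members lie at the right and mostly within 1 log2 unit of 0, and the lowest member in CL minus INT is AT1G44970 at -2.08.

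The arrays of CL replicate 1 and CH replicate 1 resembled each other over these genes more than they did their own types. Across the 200 genes their correlation was 0.908, while each correlated with the other 4 arrays at 0.748 to 0.835, and those 4 correlated among themselves at 0.874 to 0.923. Both arrays lay above the other 4 in 48 members, 24%, where 13.9% of all probe sets did so, and below them in 32 members, 16%, where 12.1% did. The difference between replicates 1 and 2 of CL followed that of CH with a correlation of 0.636 across members, and that of INT with 0.012. On the 25S ribosomal RNA control, replicate 1 was brighter than replicate 2 in each type, at intensities of 1823 and 392.9 in CL, 1961 and 629.6 in INT and 2652 and 145.9 in CH. The part of either array or of ribosomal RNA in the results was not tested.

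**Figure D5:**
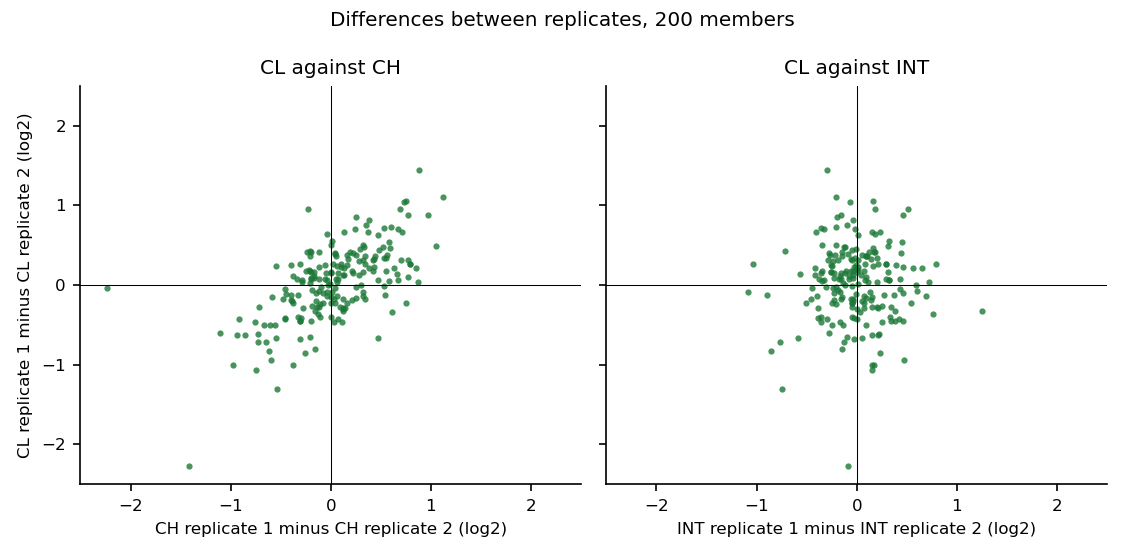
Difference between replicates 1 and 2 of CL (vertical axis, log2) against the same difference in CH (left) and in INT (right), with 1 point for each of the 200 members. The points run along the diagonal for CH, with a correlation of 0.636, and form a round cloud for INT, with a correlation of 0.012.

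AT1G50920 showed this split most. It measured 10.15 and 12.42 in CL, 12.71 and 12.79 in INT and 11.60 and 13.02 in CH, so its 2 lowest arrays were CL replicate 1 and CH replicate 1. AT2G28790 ran the other way, with 14.03 and 12.99 in CL, 12.90 and 12.74 in INT and 13.80 and 13.05 in CH. Among genes with a symbol, both arrays lay above the other 4 for WLIM1, NRPB12, CYTC-1, ISU1 and ATRBP45C. They lay below them for FAC1, ALDH10A8, MAB1, EXPA15, ACLA-2, MPPBETA, ALDH7B4, THIC, PMM, TPI, OTC and SEC22. All 6 small-molecule enzymes except SAMDC are in the lower set, where 16% of all members lay. That group was sorted with the members in view, and the pattern was seen in these same data and not tested.

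In CL against CH, the genes named are the 8 with the lowest p among those without overlap, and none passed the adjusted test. AT1G51200 measured 11.50 and 11.45 in CL and 12.74 and 12.07 in CH, with 12.41 and 12.09 in INT. Both CL arrays were below the other 4, and the difference was -0.93 log2 units, 1.91-fold lower in CL (95% interval -1.53 to -0.33, limma adjusted p = 1). Leaving out CH replicate 1 gave -0.60, and leaving out CH replicate 2 gave -1.27. AT4G27130 measured 12.29 and 12.06 in CL and 13.00 and 12.90 in CH, a difference of -0.78, and AT1G75760 measured 11.54 and 11.94 in CL and 12.23 and 12.56 in CH, a difference of -0.66.

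The heat shock protein Hsp70-2 measured 13.17 and 12.21 in CL, 11.98 and 11.80 in INT and 11.61 and 11.85 in CH. Both CL arrays were above the other 4, with CL replicate 1 far above CL replicate 2, and the difference from CH was 0.96 log2 units, 1.95-fold higher (95% interval 0.24 to 1.69, limma adjusted p = 1). Leaving out CL replicate 1 gave 0.48, and leaving out CL replicate 2 gave 1.45. AT3G09440 had the same shape, with 13.47 and 12.64 in CL against 12.54 and 12.15 in CH, a difference of 0.71, which became 0.30 with CL replicate 1 left out and 1.12 with CL replicate 2 left out.

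The calreticulin CRT1b, which binds calcium and folds glycoproteins, measured 12.98 and 12.80 in CL, 12.86 and 12.78 in INT and 12.27 and 12.52 in CH. Both CH arrays were the lowest, and the CL-CH difference was 0.50 log2 units, or 0.28 when CL replicate 1 and CH replicate 1 were both left out. SAMDC, which makes the aminopropyl donor for polyamines, measured 12.49 and 12.22 in CL, 12.16 and 11.96 in INT and 11.89 and 11.79 in CH. Its types stood in order without overlap, 0.52 log2 units between CL and CH (95% interval 0.06 to 0.98, limma adjusted p = 1). AT1G14670 followed the same order with 12.21 and 12.50 in CL, 12.16 and 12.09 in INT and 11.97 and 11.83 in CH, a difference of 0.45.

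In INT against CH, the peroxidase PRXR1 and the antenna gene LHCB4.2 were among the 24 members with both INT arrays above both CH arrays. Their differences were small, at 0.17 and 0.30 log2 units, with 95% intervals that included 0. The 8 genes with the lowest p among those without overlap are described here. AT1G44970 measured 13.37 and 13.61 in INT, 10.76 and 13.00 in CH and 11.39 and 11.43 in CL. The CH replicates stood on either side of the CL arrays. The INT-CH difference was 1.61 log2 units (95% interval 0.21 to 3.01, limma adjusted p = 0.983), but 0.49 without CH replicate 1 and 2.73 without CH replicate 2. AT1G26880 measured 14.35 and 14.94 in INT and 13.79 and 13.32 in CH, a difference of 1.09, with CL at 13.71 and 14.36.

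The isocitrate dehydrogenase cICDH had an SD of 0.01 in each type, at 12.95 and 12.94 in INT, 12.46 and 12.47 in CH and 12.53 and 12.52 in CL. INT was above the other types by a difference of 0.48 log2 units from CH, 1.39-fold (95% interval 0.03 to 0.92, limma adjusted p = 0.983). MAB1, of the pyruvate dehydrogenase, measured 12.51 and 12.41 in INT, 11.44 and 12.11 in CH and 11.34 and 11.84 in CL. The INT-CH difference was 0.68, or 0.35 without CH replicate 1.

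The actin-binding gene WLIM1 measured 11.52 and 11.54 in INT, 12.61 and 11.93 in CH and 12.55 and 11.85 in CL. Both INT arrays were the lowest, and the difference from CH was -0.74, or -0.40 without CH replicate 1. AT2G32060 measured 11.86 and 12.06 in INT and 12.94 and 12.68 in CH, a difference of -0.85. AT1G48830 measured 12.07 and 11.56 in INT and 13.15 and 12.47 in CH, a difference of -1.0, which was -0.65 without CH replicate 1. AT1G16740, with 11.99 and 12.05 in INT and 12.86 and 12.32 in CH, had a difference of -0.56, which was -0.29 without CH replicate 1.

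In CL against INT, AT1G44970 had the lowest p of the members, with a difference of -2.08 log2 units from the values given above, 4.22-fold lower in CL (95% interval -3.47 to -0.68, limma adjusted p = 0.985). The replicates of CL lay close together, and so did those of INT, with SDs of 0.03 and 0.17. MAB1 was lower in CL, with a difference of -0.87, as were AT1G51200 at -0.77 and AT1G75760 at -0.61. Hsp70-2 was higher in CL by 0.80, which became 0.32 with CL replicate 1 left out and 1.29 with CL replicate 2 left out. AT2G40010 measured 13.10 and 13.25 in CL, 12.41 and 12.56 in INT and 12.53 and 13.12 in CH, a CL-INT difference of 0.69.

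PYK10, the beta-glucosidase of endoplasmic reticulum bodies, measured 14.00 and 14.13 in CL, 13.49 and 12.81 in INT and 13.42 and 13.46 in CH. Both CL arrays were the highest of the 6, and the CL-INT difference was 0.92 log2 units, 1.89-fold (95% interval 0.23 to 1.60, limma adjusted p = 0.985), or 0.57 without INT replicate 2. PORB, of chlorophyll synthesis, measured 12.02 and 11.90 in CL, 12.32 and 12.75 in INT and 12.37 and 12.25 in CH. Both CL arrays were the lowest, and the CL-INT difference was -0.57, or -0.36 without INT replicate 2.

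By role, no group had a member that passed the adjusted test. All 5 genes of photosynthesis and chlorophyll synthesis had a lower mean in CL than in INT, with a median difference of -0.17 log2 units. The count was 4 of 5 with median scaling and as deposited, and 5 of 5, with a median of -0.37, without CL replicate 1 and CH replicate 1. LHCB4.2 measured 13.56 and 13.65 in CL, 13.93 and 14.09 in INT and 13.72 and 13.71 in CH, with both CL arrays below the other 4. PSAN, PSB27 and LHCB4.1 overlapped between CL and INT, with differences of -0.05, -0.08 and -0.17.

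Over the whole class of 12 named photosynthesis genes, 10 had a lower mean in CL than in INT, 9 with the other scalings, and the median difference was -0.15 beside 0.002 for all probe sets. Without CL replicate 1 and CH replicate 1 the count was 11 of 12 and the median -0.36. In this class 0 of 12 passed the adjusted test in any contrast. RCA, a gene of this class and the green tissue marker outside the 200, measured 11.33 and 11.05 in CL, 12.10 and 12.03 in INT and 10.54 and 11.49 in CH. Both INT arrays were the highest for RCA, and its part, or that of greener tissue in the pools, was not tested. In INT against CH, 9 of the 12 were higher in INT under each scaling, with a median of 0.27, or 0.44 without those 2 arrays. In CL against CH the class was split, with 7 higher and 5 lower in CL and a median of 0.08. Median scaling gave 8 higher and 4 lower. Without those 2 arrays 5 were higher and 7 lower, with a median of -0.03.

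The 4 cytoskeleton and cell shape genes had a lower mean in INT than in CH under each scaling, with a median difference of -0.20, and only WLIM1 did so without overlap. In CL against CH all 4 were lower, or 3 of 4 with median scaling. The class of 9 named cytoskeleton genes did not share these directions: 6 were higher in CL than in CH, with a median difference of 0.33, and in INT against CH 4 were higher and 5 lower, or 5 and 4 with median scaling. Of the 6 genes of RNA metabolism and translation, 5 were lower in INT than in CH under each scaling, and NRPB12 and ATRBP45C did so without overlap. The class of 6 named genes of RNA binding and splicing was split 3 and 3 in INT against CH, and the 1 named translation factor, EIF4A-2, had a difference of 0.01. The other groups held members of both directions or changed with the scaling. Small-molecule metabolism had 5 of 6 genes lower in CL than in INT, but 1 of 6 when CL replicate 1 and CH replicate 1 were left out. In CL against CH, 5 of 9 carbon and energy genes and 4 of 7 genes of protein folding and turnover were higher in CL, or 6 of 9 and 6 of 7 with median scaling. In INT against CH, 5 of 9 and 4 of 7 were higher in INT, or 8 of 9 and 7 of 7 with median scaling.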

How the data were processed

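The deposited values are linear intensities per probe set of ATH1 arrays. Per the labels' protocols, the authors used the DNA array to calibrate the RNA arrays across species. How probes were summarized, and the DNA cutoff, is not given in the sources used here. Arrays have no read depth. The 64 control probe sets were left out, which left 22746. To each intensity 28.2 was added (1 part in 10 of the median RNA intensity, so folds of dim genes come out too small), and the log2 values were quantile normalized over the 6 RNA arrays. Genes came from the platform annotation, by Entrez number. The fit used limma 3.58.1 under R 4.3.3 (lmFit, eBayes with a trend, flower type alone), two-sided, with Benjamini-Hochberg adjustment over all probe sets and a threshold of 0.05. The fit was tested on simulated data. Plots used Python 3.11.15 and matplotlib 3.10.9.

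The members, the functional classes (by gene symbol), the marker lists (inflorescence, dividing cells, green tissue, root, anther, seed, vascular) and the tests were chosen with earlier results of these data known, and the sorting by role with the members in view. Genes named are the 20 brightest, the 8 with the lowest p without overlap per contrast, the 5 widest and 5 narrowest ranges, the 3 on each side of the limit, the 5 lowest and 5 highest DNA signals, and up to 4 per class with at least 3 members. Others are named for their role or for a count of 5 or fewer, after their values were seen. The organism's own sequences were not used here. Alternatives covered scaling, offset, filters, variance model, replicate block, each array left out, 4 arrays only and lists of 100 and 400 genes.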

Additional observations from a re-analysis of the deposited data

How the results depend on the processing

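No member passed the adjusted test under any alternative run. None of the 24 single-gene differences picked for the lowest p changed sign over 381 values under 16 settings. These genes were picked for arrays that did not overlap, so leaving out arrays or changing the offset could not change a sign. The filters, variance model, replicate block and fits of 4 arrays only leave the differences themselves as they were. Only the scaling could have changed a sign. Counts at an unadjusted p under 0.05 were 7, 10 and 9 in CL against CH, INT against CH and CL against INT. In the main fit these were 3.5%, 5% and 4.5% of the members, beside 3.53%, 4.76% and 4.4% of all probe sets. Without the variance trend the counts were 3, 1 and 3. They were 3, 3 and 2 of the brightest 100 genes, and 19, 18 and 23 of the brightest 400. Further, INT against CH gave 6 with median scaling, CL against INT 14 with a filter on dim probe sets, and CL against CH 4 with only the 4 arrays compared. The replicate block gave 9, 15 and 15. For none of these alternatives, or for those with 1 array left out, is the share of all probe sets given here. A higher or lower count therefore cannot be read as more or fewer differences among the members. The differences between replicates 1 and 2 were correlated only for CL and CH (r 0.636 over members, 0.246 over all probe sets). They were not for INT and CL (0.012 and -0.047) or INT and CH (-0.013 and -0.051), so the numbers were not taken as pairs. On the 25S control, however, replicate 1 was brighter than replicate 2 in each type, INT included. Whether same-numbered arrays share a batch was not tested. Leaving out 1 array gave 4 to 9, 2 to 13 and 2 to 19; the lowest count came without INT replicate 2 in the first and second contrast, and without CL replicate 1 or INT replicate 2 in the third, and the highest in the third without CL replicate 2.

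The members' median difference in CL against CH was 0.075 with median scaling, 0.042 as deposited and 0.017 among the brightest 100 genes, and -0.061 to -0.008 with 1 array left out. In INT against CH it was 0.042 with median scaling, -0.056 without CL replicate 1 and CH replicate 1 (an alternative added after the data were seen), and -0.056 to 0 with 1 array left out. In CL against INT it was 0.046 with median scaling, 0.044 as deposited and -0.003 to 0.047 with 1 array left out. The cause was not tested. Other scalings, offsets and array choices kept 182 to 200 of the 200 genes, and ranking by RNA minus DNA signal kept 53. The number of arrays limits the precision, and probe binding the order of genes.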
